A study of Mus musculus with 6 samples.

Results

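The genes examined are 53 genes of the myeloid, granulocyte and mast cell lineages, followed in a mouse B-cell line that was given the cofactor FOG1. They were chosen by name, as regulators, growth factor receptors, monocyte and macrophage genes, granule genes, and mast cell, basophil and eosinophil genes, with earlier results of these data known. Each was read from an array probe set whose annotation names that gene alone, and from the probe set with the highest mean over the 6 arrays where there were several. In this way 52 of the 53 were measured, out of 19937 genes with such a probe set. Ly6c1, a surface protein of monocytes, was the exception, because its 2 probe sets are annotated to Ly6c2 as well, and it is given no value here.

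The cells were of the 230-238 line, which the labels describe as a B-cell line. In the control group, called GFP here, they were infected with a plasmid encoding green fluorescent protein, and in the other, called GFP+FOG1, with a plasmid encoding GFP and FOG1. After 3 days of culture in RPMI1640 medium, cells were sorted for GFP fluorescence, cultured for 4 more days and lysed for RNA, and each group has 3 samples, numbered as biological replicates. The control cells therefore share the infection, the GFP and the sort, all samples come from 1 cell line, and the promoter that drove FOG1 is not given in the sources used here. Nothing states that the replicates were infected separately, so the p-values measure only the spread between these samples. Values are log2 signals as deposited, and a change is the GFP+FOG1 mean minus the GFP mean. Zfpm1, which encodes FOG1, had signals of 9.41, 9.49 and 9.43 in GFP and 10.21, 10.16 and 10.17 in GFP+FOG1, so every array went with its label. Its signal was 1.67-fold higher with FOG1 and stood at percentile 83.8 of all probe sets in GFP cells. The comparison is therefore of a higher with a lower Zfpm1 signal, and the GFP cells were not shown to lack FOG1. The line carried B-lineage signals: 11 of 12 measured defining markers of B-lineage cells, Cd79a, Cd79b, Pax5 and Ebf1 among them, lay above the median signal of all probe sets in GFP cells, and Rag2 lay below it. Over all probe sets, pairs of arrays correlated at 0.993 to 0.996.

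Myeloid cells arise from progenitors in which PU.1, the product of Spi1, and the C/EBP factors switch on receptors for colony-stimulating factors and then the proteins of the mature cell. Neutrophils store proteases and antimicrobial proteins in granules that are filled in successive stages, macrophages carry scavenger receptors and lysosomal enzymes, and mast cells and basophils store histamine, proteoglycan and their own proteases. Several of these regulators, Spi1 and Irf8 among them, also work in B cells. FOG1 binds GATA factors, and its loss or gain is known to alter the choice between erythroid, megakaryocytic, mast cell and eosinophil fates.

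The promoters of some of these genes are shown because they place the same short motif, the PU box GAGGAA that PU.1 can bind, in front of genes with very different signals in these cells. The windows run from 250 bases before to 50 after the transcription start, are from RefSeq on build GRCm38.p6 and are written 5′ to 3′ on the strand of the gene, with matches to the searched motifs on either strand in capitals. Csf2ra (chr19:61228369-61228668, reverse strand) and Cd68 (chr11:69666121-69666420, reverse strand) had signals above the median, whereas Elane (chr10:79886062-79886361, forward strand) and Mpo (chr11:87793534-87793833, forward strand) had signals below it. Irf8 (chr8:120736108-120736407, forward strand, the first of its 2 windows) is shown as the member with the smallest p-value in the comparison with FOG1, and no match was found in it. 
Csf2ra: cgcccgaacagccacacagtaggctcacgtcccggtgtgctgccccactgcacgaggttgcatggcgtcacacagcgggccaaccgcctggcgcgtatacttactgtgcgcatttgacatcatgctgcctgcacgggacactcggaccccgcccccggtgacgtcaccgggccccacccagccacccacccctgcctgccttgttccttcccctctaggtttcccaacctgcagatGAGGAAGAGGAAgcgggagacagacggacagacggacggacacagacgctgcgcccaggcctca
Cd68: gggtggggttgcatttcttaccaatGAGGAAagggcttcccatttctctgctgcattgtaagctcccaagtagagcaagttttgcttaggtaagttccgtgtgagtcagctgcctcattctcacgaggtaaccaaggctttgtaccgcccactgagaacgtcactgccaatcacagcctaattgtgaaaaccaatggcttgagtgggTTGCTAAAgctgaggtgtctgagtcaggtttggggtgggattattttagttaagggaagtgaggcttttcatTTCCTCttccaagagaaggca
Elane: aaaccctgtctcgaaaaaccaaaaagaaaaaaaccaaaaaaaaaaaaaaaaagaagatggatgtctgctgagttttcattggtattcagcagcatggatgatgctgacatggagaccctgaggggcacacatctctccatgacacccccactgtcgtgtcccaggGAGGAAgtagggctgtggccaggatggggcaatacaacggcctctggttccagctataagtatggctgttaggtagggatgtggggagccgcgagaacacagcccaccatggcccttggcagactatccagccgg
Mpo: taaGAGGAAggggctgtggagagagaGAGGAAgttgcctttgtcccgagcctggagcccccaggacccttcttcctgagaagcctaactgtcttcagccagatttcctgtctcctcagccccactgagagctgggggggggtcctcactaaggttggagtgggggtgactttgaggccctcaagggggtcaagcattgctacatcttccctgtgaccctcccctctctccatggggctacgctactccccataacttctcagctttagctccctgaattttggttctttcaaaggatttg
Irf8: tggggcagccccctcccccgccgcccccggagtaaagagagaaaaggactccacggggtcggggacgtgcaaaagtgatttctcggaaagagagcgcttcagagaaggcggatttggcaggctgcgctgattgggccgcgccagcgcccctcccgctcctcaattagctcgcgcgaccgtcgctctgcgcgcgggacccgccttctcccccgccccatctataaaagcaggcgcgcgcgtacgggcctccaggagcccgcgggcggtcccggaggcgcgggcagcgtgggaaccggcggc

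Windows were used for 39 of the 53 genes, 47 windows in all, and the other 14 genes had none used here. Member windows on a single chromosome were left out, a rule not applied in the counts over all windows. Genes lost by that rule and genes without a window in the reference were not counted apart. The motifs searched, on both strands, were GAGGAA for PU.1, TTGCNNAA for C/EBP, and AGATAA and TGATAA for GATA factors, none of which overlapped another in the windows printed. A PU box was present in 25 of the 47 windows, against 28.3% of all 32851 windows in the table. Windows of the same gene can overlap, as for Kit and Clec7a, so 1 match can be counted again by window. By gene a PU box was found in 22 of the 39, against 31.3% of all genes with a window, including 10 of 14 granule genes. By level, among genes with a window used, it was found in 4 of 8 above the median signal and 17 of 30 below it. The C/EBP letters were present in 13 windows, against 10.8% of all windows. By gene they were found in 12 of the 39, against 12.2% of all genes with a window, and in 7 of the 14 granule genes, Ltf, Lcn2 and Ngp among them. A GATA motif of either spelling was present in 10 windows, against 18.6% of all windows. By gene it was found in 9 of the 39, against 21% of all genes with a window. The 9 were Ccr2, Ccr3, Cpa3, Fcer1a, Il5ra, Ltf, Lyz1, Mitf and S100a9. No member passed the test between the groups, with or without a motif, so that outcome does not bear on the motif. A match is a run of letters and not a measured binding site.

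In the GFP cells most of these genes gave signals in the lower part of the array. Only 12 of the 52 reached the median GFP signal over all probe sets, 7.004 log2 units, whereas 53.3% of all named genes did. The array file holds no detection call, a probe set's signal depends on its probes as well as on its RNA, and signals below the median can be partly background. The members nearest to the median were Cd177 (7.16), Cebpa (7.39) and Maf (7.53) above it and Fcnb (6.94), Cebpe (6.92) and Tyrobp (6.89) below it. The 12 were the same when every GFP array had to reach its own median.

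**Figure D1:**
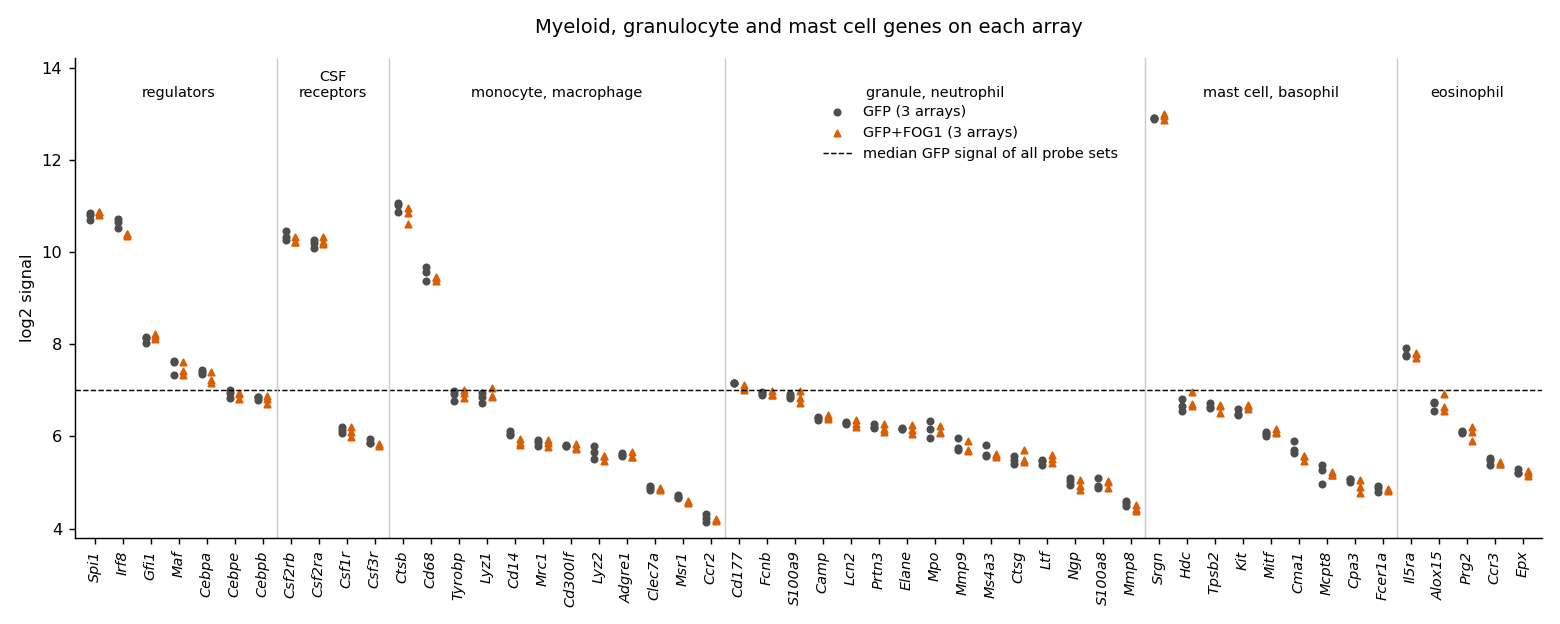
Log2 signal of each of the 52 genes on the 3 GFP arrays (circles) and the 3 GFP+FOG1 arrays (triangles), ordered by GFP mean within each group of genes, with the median GFP signal of all probe sets as a dashed line. Of the 52, 12 lie on or above the line, with 5 of them among the 7 regulators and 1 among the 15 granule and neutrophil genes.

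By role, the regulators had the largest share above the median, with 5 of 7, namely Spi1, Irf8, Gfi1, Maf and Cebpa. Their GFP percentiles among all probe sets ran from 46.8 for Cebpb to 94.4 for Spi1. Among the 4 receptors for colony-stimulating factors, both chains of the GM-CSF receptor, Csf2ra (percentile 90.6) and Csf2rb (91.8), were high. The receptors for M-CSF and G-CSF, Csf1r (33.3) and Csf3r (28.6), were low. Of the 12 measured monocyte and macrophage genes, only the lysosomal genes Ctsb (95.4) and Cd68 (84.7) were above the median, and the macrophage surface genes Adgre1 (23.5), Mrc1 (28.2), Clec7a (12.5) and Ccr2 (5.3) were well below it.

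Of the 15 granule and neutrophil genes, 14 lay below the median, and the percentiles of all 15 ran from 8.5 to 52.7. Primary granule genes lay at percentiles 33.5 for Mpo, 33.8 for Elane, 34.6 for Prtn3 and 21.3 for Ctsg. The later granule genes lay at 20.8 for Ltf, 38.3 for Camp, 14.5 for Ngp, 8.5 for Mmp8 and 27.1 for Mmp9, and S100a8 and S100a9 at 13.6 and 47.7. Cd177, a surface protein of neutrophils, was the single one of the 15 above the median, at percentile 52.7. Srgn, which encodes the proteoglycan core of secretory granules and is made by many blood cells, stood at percentile 99.6, while the other 8 mast cell and basophil genes ran from 12.2 for Fcer1a to 43.8 for Hdc. Of the 5 eosinophil genes, Il5ra, the interleukin 5 receptor chain, was above the median at percentile 62.6, and Prg2, Epx, Ccr3 and Alox15 lay between 17.3 and 43.8.

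With FOG1, no member passed the threshold, an adjusted p under 0.05 with limma and Benjamini-Hochberg over all 34760 probe sets, at which 0.224% of all probe sets were called. An unadjusted p under 0.05 was reached by 4 of the 52, all with negative changes, against 12.5% of all probe sets, 6.94% with a negative and 5.55% with a positive change (limma). The groups did not overlap for 6 of the 52, again all lower with FOG1, namely Irf8, Csf3r, Cd14, Msr1, Cd177 and Cma1, against 19.6% of all probe sets, 10.5% lower and 9.13% higher. In either direction together, both counts of members are smaller shares of the 52 than of all probe sets, and in the lower direction they are near those shares. Changes were small, from -0.25 to 0.13, with a median of -0.03 against -0.01 over all probe sets. The 95% interval of every measured member stayed within 0.42 log2 units of no change, or 1.34-fold, on the scale of the array signal.

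More members had negative than positive changes, 38 against 14, but this balance moved with the scaling of the arrays. It was 29 against 23 after quantile normalization and also after centring each array on its median, with medians of -0.01 in both. Over all probe sets 53.8% of changes were negative in the deposited values. The median over all probe sets moved too, from -0.010 as deposited to -0.001 after quantile normalization and 0.015 after centring. The median of the members lay below it in each scaling. Under both scalings Kit became a gene whose groups did not overlap, higher with FOG1, and 5 and 4 genes did not overlap in the lower direction, Cd177 being lost under both and Csf3r after centring. Leaving out an array also moved the counts. The genes whose groups did not overlap numbered 13, 7 and 11 without GFP replicates 1, 2 and 3, and 16, 11 and 11 without GFP+FOG1 replicates 1, 2 and 3, where fewer arrays make an overlap less likely. Those with an unadjusted p under 0.05 (limma) numbered 7 without GFP+FOG1 replicate 1 and 2 without GFP+FOG1 replicate 2. The shares of all probe sets with such results were computed only for the deposited values on all arrays. The counts under other scalings or without an array can therefore not be called high or low. For Spi1, Gfi1, Maf, Csf2ra, Csf2rb, Il5ra and Srgn, the changes without 1 array lay between -0.17 and 0.10, each with its direction kept, and for Cebpa between -0.20 and -0.09.

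**Figure D2:**
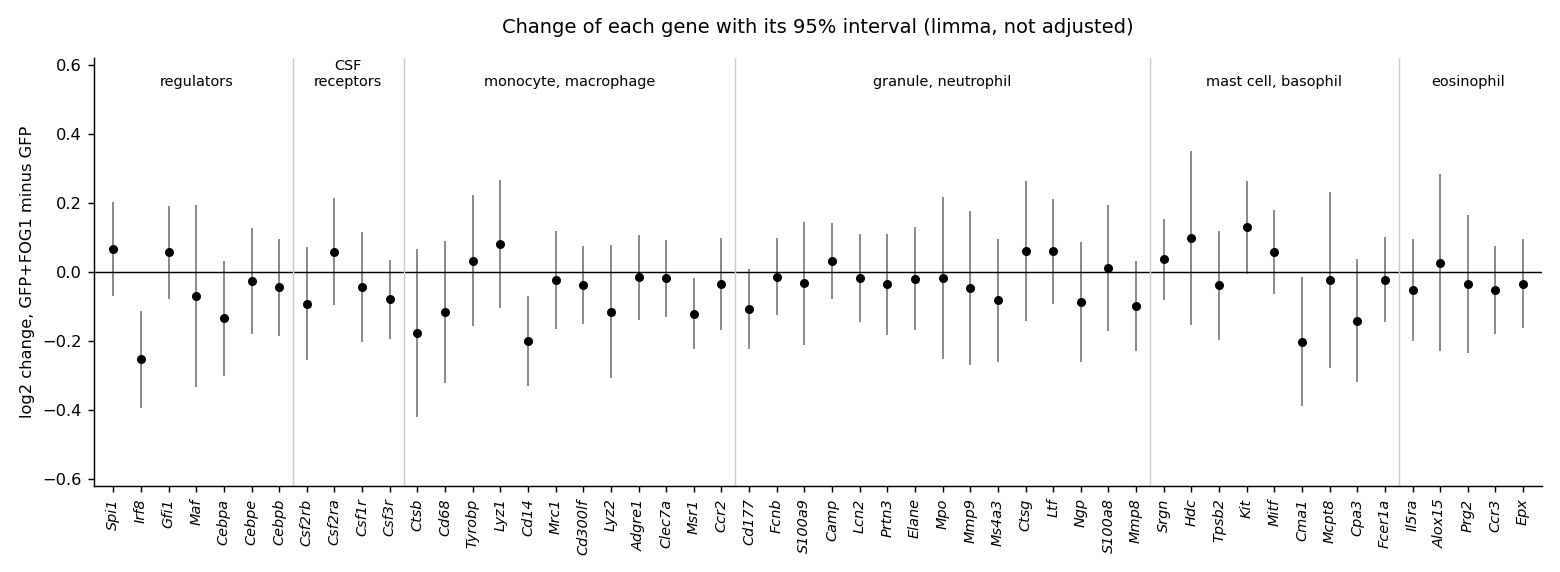
Log2 change (GFP+FOG1 minus GFP) of each of the 52 genes with its unadjusted 95% interval from limma, in the order of the plot of signals. All points lie between -0.25 and 0.13, and the intervals of Irf8, Cd14, Msr1 and Cma1 exclude 0.

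Among the regulators, Irf8 had the smallest p-value of all 52 members. It encodes a transcription factor that directs monocyte and dendritic cell development and restrains granulocyte development, and it is also active in B cells. Its signals were 10.71, 10.65 and 10.53 in GFP and 10.34, 10.39 and 10.39 in GFP+FOG1, so all 3 FOG1 arrays lay below all 3 GFP arrays. The change was -0.25 (SE 0.058), or 1.19-fold lower, at a limma adjusted p of 0.22, and it did not pass. Across the 14 other settings run the change stayed between -0.30 and -0.21 and the limma adjusted p between 0.11 and 0.47.

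Spi1, which encodes PU.1, the regulator shared by myeloid and B-lineage cells, had signals of 10.84, 10.80 and 10.68 in GFP and 10.86, 10.80 and 10.87 in GFP+FOG1. The groups overlapped, and the change was 0.07 (SE 0.057; limma adjusted p = 0.65). Cebpa, the C/EBP factor needed to make granulocyte and monocyte progenitors, had 7.35, 7.40 and 7.43 in GFP against 7.39, 7.22 and 7.16. FOG1 replicates 2 and 3 lay below the GFP arrays and replicate 1 among them, with a change of -0.13 (SE 0.070; limma adjusted p = 0.47). Gfi1, a repressor that acts in granulocyte development, had 8.16, 8.14 and 8.03 against 8.17, 8.11 and 8.22, and its groups overlapped.

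Maf, a transcription factor of macrophages and some T cells, had 7.33, 7.63 and 7.62 in GFP and 7.62, 7.42 and 7.34 in GFP+FOG1. Its spread within the GFP group (SD 0.17, n = 3) was larger than its change of -0.07. Cebpb and Cebpe, the C/EBP factors of macrophage activation and of late granulocyte maturation, were both below the median, at means of 6.83 and 6.92 in GFP, with changes of -0.04 and -0.03. The 7 regulators had a median change of -0.04, with 2 positive and 5 negative.

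The GM-CSF receptor chains did not differ beyond their spread. Csf2ra, the ligand-binding chain, had 10.19, 10.26 and 10.09 in GFP and 10.22, 10.18 and 10.32 in GFP+FOG1, a change of 0.06 (SE 0.065; limma adjusted p = 0.72). Csf2rb, the shared signalling chain of the receptors for GM-CSF, interleukin 3 and interleukin 5, had 10.45, 10.32 and 10.25 against 10.21, 10.21 and 10.33, a change of -0.09 (SE 0.068; limma adjusted p = 0.60). The groups overlapped for both. Csf2rb2, a close relative of Csf2rb, had a change of -0.16 (SE 0.065; limma adjusted p = 0.40) and overlapping groups, and the sharing of probes between these relatives was not examined. Csf3r had a change of -0.08 and groups that did not overlap, at 5.85 to 5.95 in GFP and 5.78 to 5.84 in GFP+FOG1. Csf1r, the M-CSF receptor of macrophages, had a change of -0.04.

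**Figure D3:**
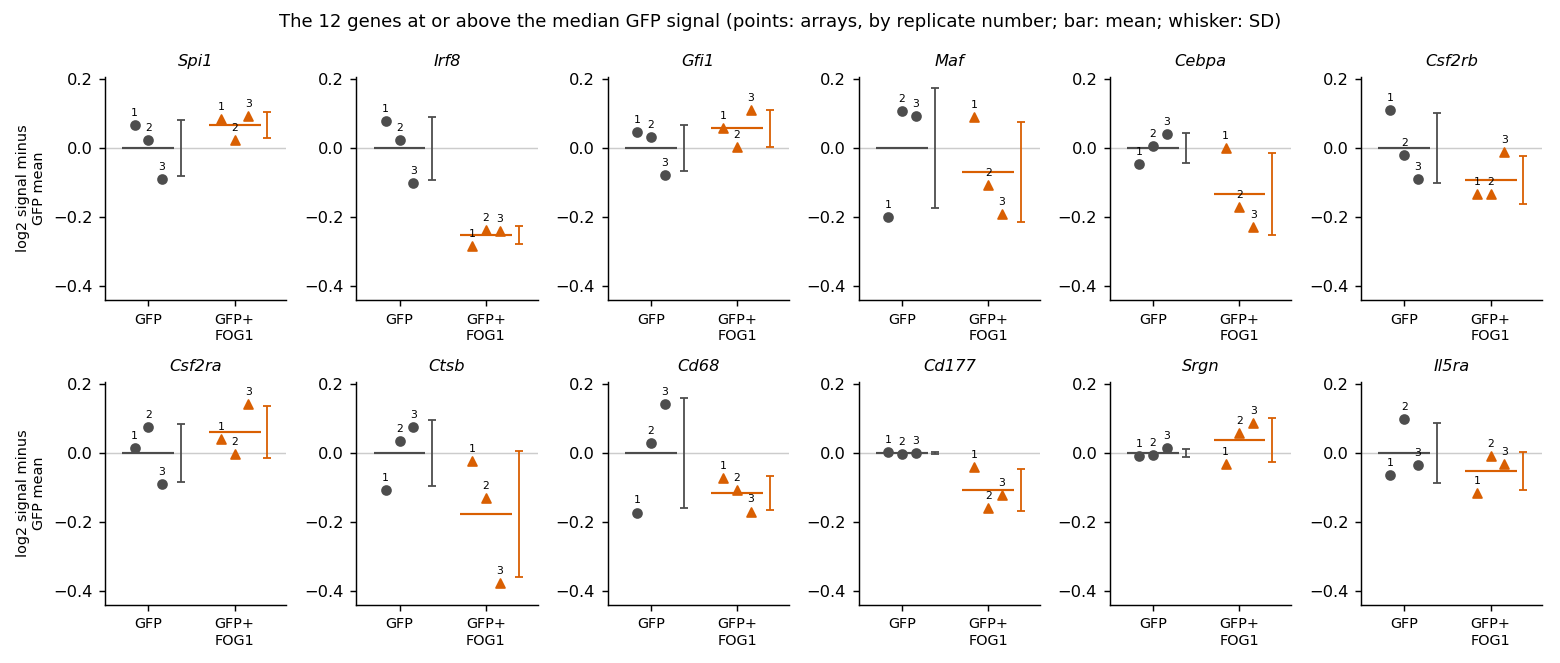
Log2 signal of the 12 genes at or above the median GFP signal, each minus its own GFP mean, on 3 GFP arrays (circles) and 3 GFP+FOG1 arrays (triangles), with replicate numbers, group means (bars) and SD (whiskers). Irf8 and Cd177 are the genes whose groups do not overlap, and Ctsb has its lowest value on GFP+FOG1 replicate 3.

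Of the monocyte and macrophage genes, Cd14 and Msr1 had groups that did not overlap, both at low signals. Cd14, the coreceptor for bacterial lipopolysaccharide, had 6.04, 6.12 and 6.05 in GFP and 5.95, 5.81 and 5.85 in GFP+FOG1, a change of -0.20 (SE 0.054; limma adjusted p = 0.26). Msr1, a scavenger receptor, had 4.72, 4.67 and 4.68 against 4.55, 4.57 and 4.60, a change of -0.12 (SE 0.043; limma adjusted p = 0.35). Neither passed. Msr1 lay at percentile 10.3 of GFP signals, where a value can be mostly background.

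Ctsb, the lysosomal protease cathepsin B, had 10.87, 11.02 and 11.06 in GFP and 10.96, 10.85 and 10.61 in GFP+FOG1. Cd68, a lysosomal membrane protein of macrophages that other cells also make, had 9.36, 9.56 and 9.68 against 9.46, 9.43 and 9.36. Both had overlapping groups, with changes of -0.18 (SE 0.10) and -0.12 (SE 0.086) that did not pass (limma adjusted p = 0.51 and 0.60). Leaving out 1 array, the change of Ctsb ran from -0.25 without GFP+FOG1 replicate 1 to -0.08 without GFP+FOG1 replicate 3, and that of Cd68 from -0.20 without GFP replicate 1 to -0.04 without GFP replicate 3. In the same arrays markers of fibroblasts varied: Col1a1, a collagen chain, had 9.53, 9.73 and 9.70 in GFP and 9.90, 9.61 and 8.99 in GFP+FOG1, and Pdgfrb, a growth factor receptor of mesenchymal cells, had 8.42, 8.54 and 8.65 against 8.97, 8.59 and 7.59. All 6 fibroblast markers listed were measured and 4 were above the median, and their summed linear signal ran from 2033 to 2330 in GFP and from 1488 to 2694 in GFP+FOG1. Ctsb and 5 of the 6 fibroblast markers had their lowest value on GFP+FOG1 replicate 3, whereas Dcn, a matrix proteoglycan, had its highest value there (5.92). The part of such cells in the values of Ctsb and Cd68 was not tested.

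**Figure D4:**
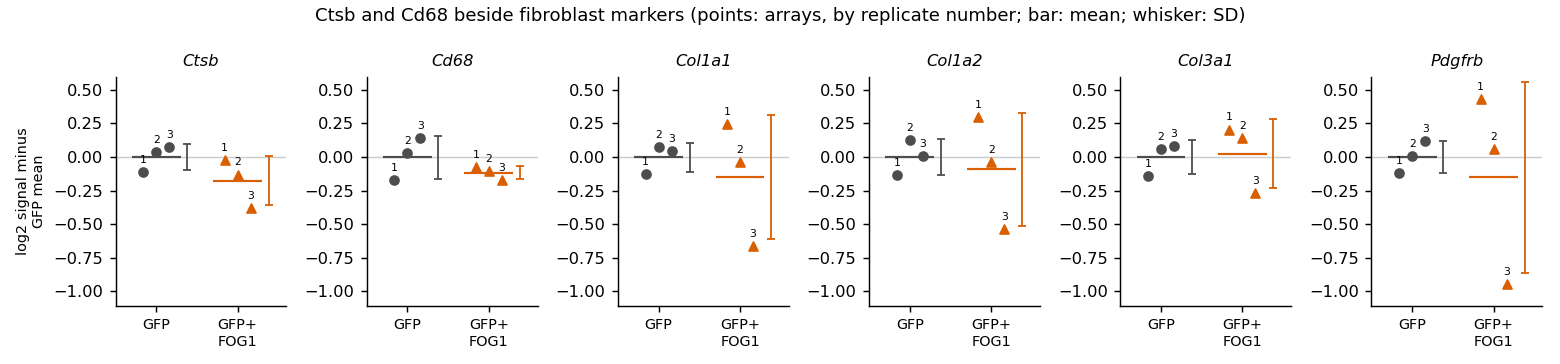
Log2 signal minus the GFP mean of Ctsb, Cd68 and 4 fibroblast markers on 3 GFP arrays (circles) and 3 GFP+FOG1 arrays (triangles), with replicate numbers, means (bars) and SD (whiskers). Ctsb and the 4 fibroblast markers drawn have their lowest value on GFP+FOG1 replicate 3, Pdgfrb spans the widest range, and of the 2 markers not drawn Pdgfra is also lowest there and Dcn highest.

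The other 8 measured monocyte and macrophage genes had overlapping groups and changes from -0.11 for Lyz2 to 0.08 for Lyz1. Lyz1 and Lyz2, neighbouring genes for nearly the same lysozyme, were at 6.84 and 5.65 in GFP, and the sharing of probes between them was not examined. Tyrobp, the adaptor of several activating myeloid receptors, had a change of 0.03 and Adgre1, which encodes the macrophage marker F4/80, of -0.02. The 12 measured genes had a median change of -0.04, with 10 negative and 2 positive, and with 7 negative and 5 positive under either of the other scalings.

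The 15 granule and neutrophil genes stayed within -0.11 and 0.06, and none had an unadjusted p under 0.05 (limma), against 12.5% of all probe sets. Cd177 had the tightest values of any member in GFP, at 7.16 on all 3 arrays (SD 0.0030), and 7.120, 7.001 and 7.039 in GFP+FOG1. The groups did not overlap, and the change was -0.11 (SE 0.048; limma adjusted p = 0.42). They overlapped after quantile normalization and after median centring. Mmp8, the neutrophil collagenase, had 4.50, 4.59 and 4.55 against 4.52, 4.39 and 4.43, with overlapping groups. For the proteases and peroxidase of the primary granules, Elane, Prtn3, Ctsg and Mpo, the changes were -0.02, -0.03, 0.06 and -0.02. The calcium-binding alarmins S100a8 and S100a9 had 0.01 and -0.03, and the secondary granule genes Ltf, Camp, Ngp and Lcn2 had 0.06, 0.03, -0.09 and -0.02. The median was -0.02 over the 15, and it was 0.01 after median centring, so the sign of this small value depends on the scaling.

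Kit, the receptor for stem cell factor on mast cells and progenitors, had the largest positive change of the 52. Its signals were 6.60, 6.49 and 6.46 in GFP and 6.68, 6.60 and 6.65 in GFP+FOG1. GFP+FOG1 replicate 2 lay just below GFP replicate 1, so the groups overlapped, and the change was 0.13 (SE 0.056; limma adjusted p = 0.41). Cma1, a mast cell chymase, had 5.63, 5.69 and 5.89 against 5.57, 5.47 and 5.57, with groups that did not overlap and a change of -0.20 (SE 0.078; limma adjusted p = 0.38) that was -0.12 without GFP replicate 3. Cpa3, the mast cell carboxypeptidase, had 5.071, 5.068 and 5.002 against 5.044, 4.775 and 4.901, with overlapping groups and a change of -0.14 (limma adjusted p = 0.48). That change was -0.21 without GFP+FOG1 replicate 1 and -0.07 without GFP+FOG1 replicate 2.

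Srgn remained at the top of the signal range, with 12.89, 12.90 and 12.92 in GFP and 12.87, 12.96 and 12.99 in GFP+FOG1, and a change of 0.04 (SE 0.049; limma adjusted p = 0.77). Mitf, the transcription factor of mast cells and pigment cells, had a change of 0.06 at its brighter probe set and of -0.03 at the other, whose GFP mean was 3.59. Hdc, which makes histamine, had 0.10, and Fcer1a, Mcpt8 and Tpsb2 had -0.02, -0.02 and -0.04. The 9 genes had 4 positive and 5 negative changes, and 6 and 3 under either of the other scalings.

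Among the eosinophil genes, Il5ra had 7.75, 7.91 and 7.77 in GFP and 7.69, 7.80 and 7.78 in GFP+FOG1, a change of -0.05 (SE 0.061; limma adjusted p = 0.74), with overlapping groups. The granule protein genes Prg2 and Epx had -0.04 and -0.03, the eotaxin receptor gene Ccr3 -0.05 and the lipoxygenase gene Alox15 0.03. Some of the members are next to each other in the genome, with no other protein-coding gene between them: Prtn3 and Elane, Lyz2 and Lyz1, Mcpt8 and Ctsg, S100a8 and S100a9, and Ccr3 and Ccr2. None of these neighbours had groups that did not overlap.

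A list of 107 related myeloid genes outside the 53 was chosen by hand with earlier results of these data known. It was read in the same way, and 97 were measured. Of these 1 passed, lower with FOG1, against 0.121% of all probe sets called lower. This was Itgam, the alpha M integrin chain, with 8.13, 8.02 and 8.07 in GFP and 6.88, 6.89 and 7.11 in GFP+FOG1, or 2.16-fold lower (change -1.11, SE 0.077; limma adjusted p = 0.0075). Its call was lost without GFP replicates 1 or 3 and without GFP+FOG1 replicate 2 (limma adjusted p = 0.058, 0.066 and 0.054). The groups did not overlap for 23 of the 97 lower and 4 higher, against 10.5% and 9.13% of all probe sets. An unadjusted p under 0.05 (limma) was reached by 20 with a negative and 2 with a positive change, against 6.94% and 5.55% of all probe sets. Because of how the list was chosen, these counts are a description and not an independent test. Of the 97 changes 77 were negative, against 53.8% of all probe sets. After quantile normalization and median centring 69 and 65 were negative, where the share of all probe sets was not computed.

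Genes of the phagocyte NADPH oxidase, which makes the superoxide burst of neutrophils and macrophages and is also present in B cells, had high signals and the lowest median of the related groups, -0.22 over 5 measured genes. None passed. Ncf1, which encodes the organizing subunit p47phox, had 8.34, 8.33 and 8.36 in GFP and 7.95, 7.95 and 8.05 in GFP+FOG1, or 1.28-fold lower (change -0.36, SE 0.047; limma adjusted p = 0.067). Cybb, the catalytic subunit, had 10.73, 10.62 and 10.66 against 10.04, 10.21 and 10.37, or 1.38-fold lower (change -0.47, SE 0.088; limma adjusted p = 0.16). For both, each FOG1 array lay below each GFP array. Named after their values were seen, Ncf4 (-0.22) and Cyba (-0.09) also had groups that did not overlap, and Rac2, a small GTPase that activates the complex, had 0.03 with overlapping groups. After median centring, the groups did not overlap for 3 of the 5 genes in the lower and 1 in the higher direction. After quantile normalization these counts were 4 and 0, as in the deposited values. There, 10.5% of all probe sets were lower and 9.13% higher without overlap, shares not computed under the other scalings. The genes were chosen by hand with earlier results known, so these counts are a description and not an independent test. Ncf1 passed when fewer probe sets were tested, at a limma adjusted p of 0.026 without dim probe sets and 0.025 with 1-symbol probe sets alone. Its limma adjusted p was 0.25 with the replicate number as a block in the model and 0.26 without GFP+FOG1 replicate 2.

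**Figure D5:**
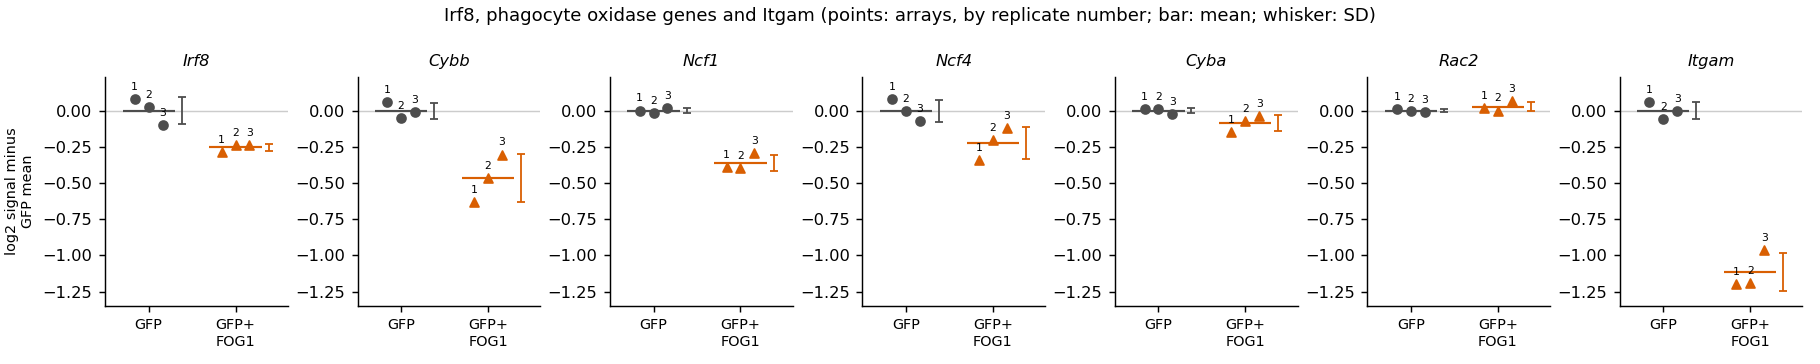
Log2 signal minus the GFP mean of Irf8, 5 phagocyte oxidase genes and Itgam on 3 GFP arrays (circles) and 3 GFP+FOG1 arrays (triangles), with replicate numbers, means (bars) and SD (whiskers). Itgam is lower by 1.11 log2 units and passes the test, whereas Cybb, Ncf1, Ncf4, Cyba and Irf8 have groups that do not overlap but do not pass, and the groups of Rac2 overlap.

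None of the genes named next, from the other related groups, passed. Ctsh, the lysosomal protease cathepsin H, had 8.43, 8.47 and 8.49 in GFP and 8.16, 8.16 and 8.20 in GFP+FOG1, a change of -0.29 (SE 0.043; limma adjusted p = 0.098), and it passed at 0.043 without dim probe sets and 0.044 with 1-symbol probe sets alone. Its limma adjusted p was 0.31 with the replicate block and 0.32 without GFP+FOG1 replicate 2. Il6ra, the interleukin 6 receptor chain, had 8.29, 8.40 and 8.33 against 8.13, 7.95 and 7.94 (change -0.33, limma adjusted p = 0.18). Il4ra, the interleukin 4 receptor chain, had a change of -0.14 (limma adjusted p = 0.32). All 3 had groups that did not overlap. Mpeg1, a pore-forming protein of macrophages named after its values were seen, had 6.98, 6.77 and 7.20 in GFP and 6.52, 6.40 and 6.31 in GFP+FOG1. Its groups did not overlap, and its change of -0.57 (SE 0.12, or 1.49-fold lower; limma adjusted p = 0.18) was the largest of the related genes after that of Itgam among those with an unadjusted p under 0.05 (limma).

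Lat2, an adaptor of mast cells and B cells, had 8.90, 8.72 and 8.71 in GFP and 8.24, 8.48 and 8.40 in GFP+FOG1 (change -0.40, SE 0.083; limma adjusted p = 0.19). Hpgds, which makes prostaglandin D2 in mast cells, had a change of -0.25 at a GFP mean of 5.77 (limma adjusted p = 0.37), and of -0.14 without GFP+FOG1 replicate 3. Lyst, a regulator of lysosome-related granules, and Alox5ap, the partner of 5-lipoxygenase, had -0.17 and -0.23 (limma adjusted p = 0.29 and 0.30). Bach2, a repressor of the plasma cell and myeloid programmes in B cells, had a positive change, with 11.28, 11.23 and 11.15 in GFP and 11.38, 11.40 and 11.47 in GFP+FOG1 (change 0.20, SE 0.054; limma adjusted p = 0.27). Gata1 and Gata2 encode GATA factors of the erythroid, mast cell and eosinophil lineages, and both were below the median. Gata1 had 6.70, 6.87 and 6.74 in GFP and 6.65, 6.52 and 6.54 in GFP+FOG1, with groups that did not overlap (change -0.20, SE 0.064; limma adjusted p = 0.32). Gata2 had 6.82, 6.90 and 6.81 against 6.83, 6.66 and 6.74, with overlapping groups (change -0.10, limma adjusted p = 0.53; from -0.14 to -0.06 without 1 array).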

How the data were processed

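RNA was measured on 6 Affymetrix gene arrays, with 100 ng of total RNA amplified per sample, per the labels' protocols. The submitters' processing notes name affy, without a version. The deposited values are log2 signals, 1 per probe set and array. How the authors corrected background and normalized is not given in the sources used here, and the log2 scale was read from the values. The number of arrays limits the precision.

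Of 34760 probe sets, 21640 have 1 symbol, 1321 have several and 11799 have none in the annotation table. Symbols were checked through Entrez identifiers against RefSeq (GRCm38.p6), and 0 changed. A linear model without a block was fitted to all probe sets (limma 3.58.1, lmFit and eBayes, under R 4.3.3), and p-values were adjusted by Benjamini-Hochberg. Figures used Python 3.11.15 and matplotlib 3.10.9.

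The members, roles, related and marker lists were chosen by hand with earlier results of these data known. Values on every array are given for members at or above the median GFP signal and for the 10 with the smallest p, and for some related genes: those past the threshold, up to 2 of each list by p, and Gata1 and Gata2. The replicate numbers were not taken to pair the arrays, because the labels name no batch, litter or day that same-numbered arrays share. Deviations from the group means correlated at -0.07, 0.01 and -0.04 between same-numbered arrays. These values over all probe sets cannot exclude a pairing that affects some genes. Alternatives were other scalings and variance models, fewer probe sets, a replicate block, array weights, the mean over probe sets and leaving out each array.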

Additional observations from a re-analysis of the deposited data

How the results depend on the processing

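No member passed the threshold in any of the 14 other settings, with limma adjusted p of 0.11 or more for the 18 members whose arrays are given, and none of these changed direction in the 246 values computed. The number with an unadjusted p under 0.05 (limma), 4, was 2 without dim probe sets, where 2 genes had groups that did not overlap because fewer members remained, and it ranged from 2 to 7 without 1 array. The number with groups that did not overlap, 6, ranged from 7 to 16 without 1 array. The matching shares of all probe sets were not computed in the other settings. The number of members above the signal limit, 12, was 7 at the 75th percentile. With the replicate block 0 members passed and 3 had an unadjusted p under 0.05 (limma), and the block changed no other call of a member. In that fit Zfpm1 (change 0.74) had a limma adjusted p of 0.097. The related genes past the threshold, 1, numbered 3 without dim probe sets and 3 with 1-symbol probe sets alone (Itgam, Ncf1 and Ctsh), 0 with the replicate block, where Itgam had a limma adjusted p of 0.088, and 0 to 1 without 1 array. The settings for related genes were chosen after seeing the data. No pseudocount applied to values already on the log2 scale. Small changes of genes below the median signal cannot be told from background with these values.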
